A study of Felis catus with 36 samples.

Results

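The 60 genes described here had less messenger RNA in the left ventricle of cats with aortic banding than in SHAM-operated cats, 1 month and 4 months after surgery, and were held by the rule to a limited change between those times within the banded hearts. They were chosen from the left ventricular counts themselves. Each gene's count was divided by the sum of gene counts in its library and brought to the usual CPM scale, a common library total, and each group was summarised as log2 of its mean CPM plus 0.5. Of 26681 genes, 5910 had a mean of at least 10 CPM in the left ventricle and a difference between Banded hearts at 4 months and at 1 month under 0.5 on that log2 scale, in either direction. Among these eligible genes, the 60 with the lowest value of the larger Banded minus SHAM difference at both times were taken. The 3 identifiers that the rule leaves out were not among them. Every Banded minus SHAM value in the left ventricle was therefore fixed by the choice of genes, and is given below as a description, with no test.

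The libraries came from 2 tissues of the cat, left ventricle and skeletal muscle, with 18 libraries each. In each tissue, 5 libraries came from Banded cats at 1 month, 3 from SHAM cats at 1 month, 5 from Banded cats at 4 months and 5 from SHAM cats at 4 months. The labels call the SHAM animals controls and give no strain, sex, age or batch. They do not say whether the libraries of a group came from separate cats or whether both tissues came from the same cats, so p-values measure only the spread between these samples.

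Banding narrows the aorta, so that the left ventricle must eject against a raised pressure. The sustained load makes the heart wall thicken and stiffen, and the banded cat serves as a large-animal stand-in for heart failure with preserved ejection fraction, a disease in which the heart pumps out a normal share of its blood but fills poorly. Skeletal muscle is not exposed to that load, although muscle weakness is a known feature of the disease. The genes are known here only by Ensembl identifier, since the files do not pair identifiers with names and 0 identifiers matched the reference table of 39307 cat genes. No function is given for any of the 60, and neither tissue could be checked against its marker genes.

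Left ventricle libraries held 14.6 M to 22.3 M gene counts and skeletal muscle libraries 21.5 M to 34.9 M. The lowest count of any of the 60 genes in a left ventricle library was 10. A single SHAM library at 1 month, library 2, stood apart in the left ventricle. It held more than 2 times the CPM of the next SHAM library at 1 month in 13 of the 60 genes and in 518 of the 5910 eligible genes (8.76%), whereas libraries 1 and 3 did so in 0 of the 60 and in 3 and 6 eligible genes. With 3 SHAM libraries at that time, library 2 raised the SHAM mean of those genes, and values at 1 month are given below with and without it where it decided the direction.

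The Banded minus SHAM difference of the 60 genes ran from -0.95 to -0.36 at 4 months, with a median of -0.47, and from -1.64 to -0.36 at 1 month, with a median of -0.51. Over all eligible genes the medians were -0.00 at 4 months and 0.05 at 1 month. The difference was larger in size at 1 month than at 4 months in 36 of the 60. In SHAM hearts the same 60 genes differed between 4 months and 1 month by -0.98 to 0.71, with a median of -0.05, against -0.07 for eligible genes. The limit on change over time was set on Banded hearts only, but both SHAM means entered the differences that chose the genes. The change in SHAM hearts is therefore a description as well. In these bulk samples, fewer cells of a type and less RNA per cell cannot be told apart.

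**Figure D1:**
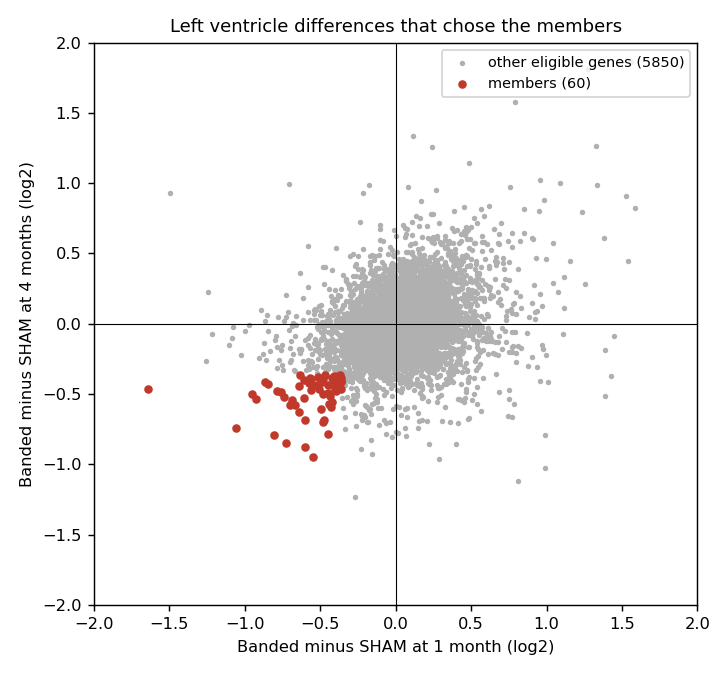
Banded minus SHAM difference in the left ventricle at 1 month (horizontal axis) against that at 4 months (vertical axis), both on the log2(mean CPM + 0.5) scale, for the 60 genes and the other eligible genes. The 60 lie in the lower left corner because they were chosen there, and 5 eligible genes lie outside the axes.

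The scale moved several of these differences. TMM scaling (trimmed mean of M values), which corrects for a few abundant genes taking a varying share of the library, moved the median Banded minus SHAM difference of the eligible genes by -0.14 at 1 month and by -0.01 at 4 months. It moved the median difference between 4 months and 1 month by 0.24 in Banded hearts, the difference that the rule limits, and by 0.12 in SHAM hearts. On the TMM scale all 60 genes were still lower in Banded hearts at both times, with medians of -0.48 at 4 months and -0.62 at 1 month, and 48 stayed within the limit on change over time. An edgeR fit of all 18 left ventricle libraries called 0 of 13976 genes at either time at an adjusted p under 0.05 (0% called), with 1420 genes at an unadjusted p under 0.05 at 4 months and 1216 at 1 month. The fitted log2 fold changes of the 60 had a median of -0.49 at 4 months and -0.62 at 1 month. For Banded hearts at 4 months against 1 month, the edgeR fit gave the 60 a median of 0.28, with 12 of 60 negative, and called 4 of the 60 higher (12.8% of all genes) and 0 lower (12.6%). Nothing is read from that count, since the rule used this contrast.

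In a few of the 60 genes the groups separated library by library. Every Banded library was below every SHAM library in 6 of the 60 genes at 4 months (0.761% of eligible genes) and in 11 of the 60 at 1 month (1.68%). At both times this held for 2 genes, ENSFCAG00000006254 and ENSFCAG00000000880 (0.0508% of eligible genes). Single libraries set these counts. At 4 months 16 of the 60 separated without Banded library 1, 10 when Banded library 5 was left out, 15 when SHAM library 3 was and 11 when SHAM library 5 was. At 1 month 24 separated when Banded library 2 was left out, 21 when SHAM library 2 was and 26 when SHAM library 3 was, and 21 did with all libraries on the TMM scale described above. The choice of genes favoured such separation, so these counts describe the 60 and carry no test.

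ENSFCAG00000006254 was even in Banded hearts. At 1 month it stood at 21.4, 21.2, 23.2, 22.9 and 21.9 CPM in Banded hearts, against 36.8, 24.1 and 25.0 CPM in SHAM hearts. At 4 months it stood at 24.1, 18.5, 22.2, 18.4 and 23.1 CPM in Banded hearts, against 29.5, 28.7, 24.9, 30.0 and 29.8 CPM in SHAM hearts. The groups did not overlap at either time, although at 1 month the highest Banded library was less than 1 CPM below the lowest SHAM library and SHAM library 1 stood well above the others. Its mean was 22.1 ± 0.874 CPM in Banded hearts and 28.7 ± 7.11 CPM in SHAM hearts at 1 month (SD, n = 5 and 3), and 21.3 ± 2.65 CPM in Banded hearts and 28.6 ± 2.13 CPM in SHAM hearts at 4 months (SD, n = 5 each). The difference at 1 month was -0.37, and -0.15 without SHAM library 1.

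ENSFCAG00000000880 showed the same separation with more spread. At 1 month it stood at 116.7, 215.9, 126.1, 139.8 and 110.0 CPM in Banded hearts, against 289.6, 219.1 and 266.1 CPM in SHAM hearts. Its values at 4 months were 203.3, 193.7, 176.7, 92.4 and 177.4 CPM in Banded hearts, against 261.7, 214.6, 221.6, 212.1 and 214.3 CPM in SHAM hearts. One Banded library reached the edge of the SHAM values at 1 month, and one lay far below the rest at 4 months. The difference was -0.41 at 4 months and -0.86 at 1 month. Without Banded library 4, the difference at 4 months was -0.26.

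The other genes with the widest gaps between the groups came close to the same separation. ENSFCAG00000031036 had 16.6, 18.6, 16.9, 18.1 and 22.6 CPM in Banded hearts at 1 month, against 31.3, 24.8 and 22.3 CPM in SHAM hearts, and 18.9, 15.3, 19.3, 13.9 and 16.6 CPM in Banded hearts at 4 months, against 26.5, 19.9, 22.7, 19.9 and 22.0 CPM in SHAM hearts. ENSFCAG00000008189 had 12.9, 19.4, 16.1, 18.2 and 16.7 CPM in Banded hearts at 1 month, against 24.1, 25.4 and 19.0 CPM in SHAM hearts, and 18, 9.34, 13.6, 8.54 and 17.4 CPM in Banded hearts at 4 months, against 21.4, 17.7, 18.8, 20.5 and 22.5 CPM in SHAM hearts. In each, a single pair of libraries crossed at 1 month, and in ENSFCAG00000008189 also at 4 months.

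In 5 of the 6 genes that rank lowest by the rule, the groups overlapped at both times. ENSFCAG00000034948, the lowest of the 60, had 5.59, 14.6, 31.6, 5.38 and 9.35 CPM in Banded hearts at 1 month, against 6.25, 59.1 and 5.70 CPM in SHAM hearts. At 4 months it had 14.6, 12.0, 19.7, 12.4 and 14.3 CPM in Banded hearts, against 25.9, 39.8, 13.2, 32.7 and 16.6 CPM in SHAM hearts. At 1 month the lower SHAM libraries sat among the lower Banded libraries, and only library 2 was above all Banded libraries. The difference at 1 month was -0.81 with library 2 and 1.09 without it.

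ENSFCAG00000039324 followed the same course, with 6.44, 19.2, 32.2, 3.81 and 10.7 CPM in Banded hearts at 1 month, against 9.08, 74.6 and 8.24 CPM in SHAM hearts. At 4 months it had 19.7, 16.0, 31.6, 14.2 and 20.9 CPM in Banded hearts, against 37.1, 49.2, 17.9, 45.6 and 23.4 CPM in SHAM hearts. Its difference at 1 month was -1.06 with library 2 and 0.71 without it. ENSFCAG00000023590 had 5.82, 12.3, 7.98, 7.62 and 6.69 CPM in Banded hearts at 1 month, against 4.01, 30.8 and 2.88 CPM in SHAM hearts, and all Banded libraries lay above the 2 lower SHAM libraries. Its difference was -0.60 with library 2 and 1.12 without it.

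ENSFCAG00000035352 and ENSFCAG00000003675 were spread less around library 2. ENSFCAG00000035352 had 10.7, 30.3, 6.15, 13.0 and 7.10 CPM in Banded hearts at 1 month, against 18.7, 41.8 and 7.36 CPM in SHAM hearts, and its difference was -0.73 with library 2 and 0.04 without it. ENSFCAG00000003675 had 7.53, 15.5, 12.5, 9.07 and 9.99 CPM in Banded hearts at 1 month, against 9.67, 32.3 and 10.1 CPM in SHAM hearts, and its difference was -0.64 with library 2 and 0.14 without it. Both overlapped between the groups at both times. At 4 months the difference of ENSFCAG00000035352 was -0.85, and -0.41 without SHAM library 4, and that of ENSFCAG00000003675 was -0.63, and -0.40 without Banded library 4. ENSFCAG00000007809 was lower in Banded hearts at 1 month with and without library 2. Its 5 Banded libraries at 1 month, at 7.30, 11.5, 6.30, 10.8 and 10.8 CPM, lay below SHAM libraries at 17.6, 11.6 and 14 CPM, and the difference of -0.60 was -0.73 without library 2. At 4 months its groups overlapped, with 6.91, 11.9, 6.85, 2.50 and 16.8 CPM in Banded hearts, against 7.67, 14.2, 8.37, 30.1 and 13.3 CPM in SHAM hearts. There the difference was -0.68, and -0.26 without SHAM library 4.

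**Figure D2:**
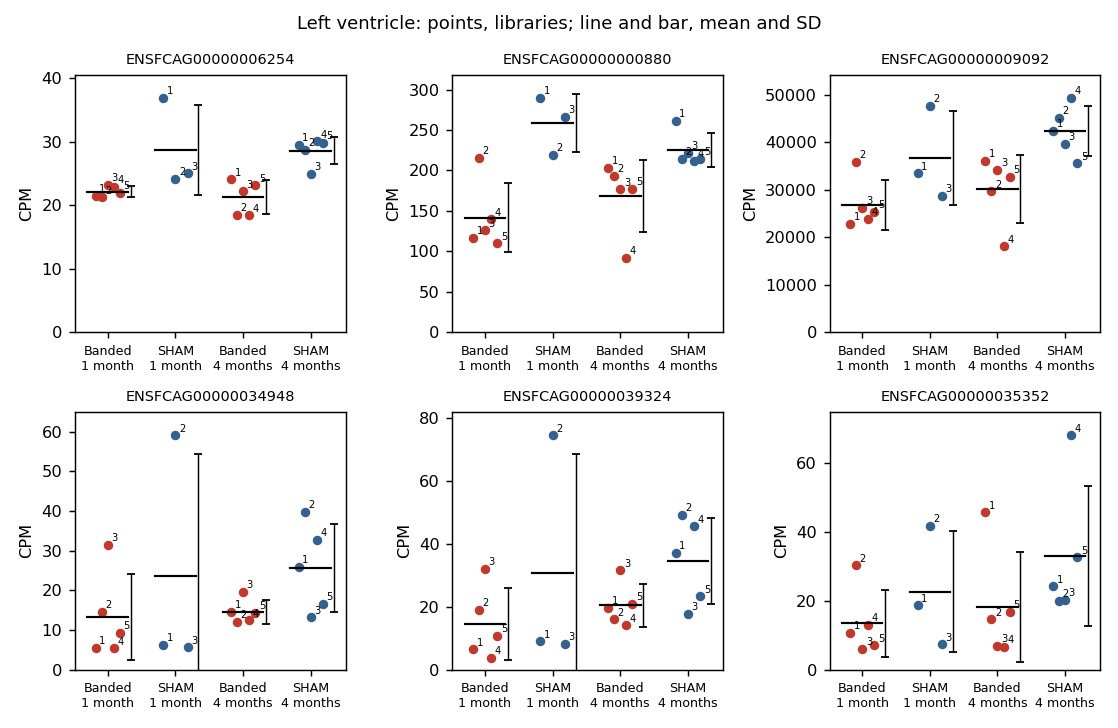
CPM in each left ventricle library (points) of 6 of the 60 genes in Banded and SHAM hearts at 1 and 4 months, with the group mean and SD (n = 5, and 3 for SHAM at 1 month); SD bars that would pass below 0 end at the axis. Groups separate in ENSFCAG00000006254 and ENSFCAG00000000880, whereas a single SHAM library at 1 month lies far above the others in ENSFCAG00000034948 (59.1 CPM) and ENSFCAG00000039324 (74.6 CPM).

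Over the 60 genes, leaving out SHAM library 2 left 46 lower in Banded hearts at 1 month and 14 not lower, and the median difference at 1 month was -0.37. The 14 included 5 of the 6 lowest by the rule. Outside the named genes, the highest values without library 2 were 1.97 for ENSFCAG00000033978 and 1.19 for ENSFCAG00000035383, both named after their values were seen, and the other 7 lay between 0.02 and 0.62. Leaving out any other left ventricle library turned the direction of 0 of the 60 at 1 month or at 4 months. That direction was fixed by the choice of genes and is no sign of stability.

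**Figure D3:**
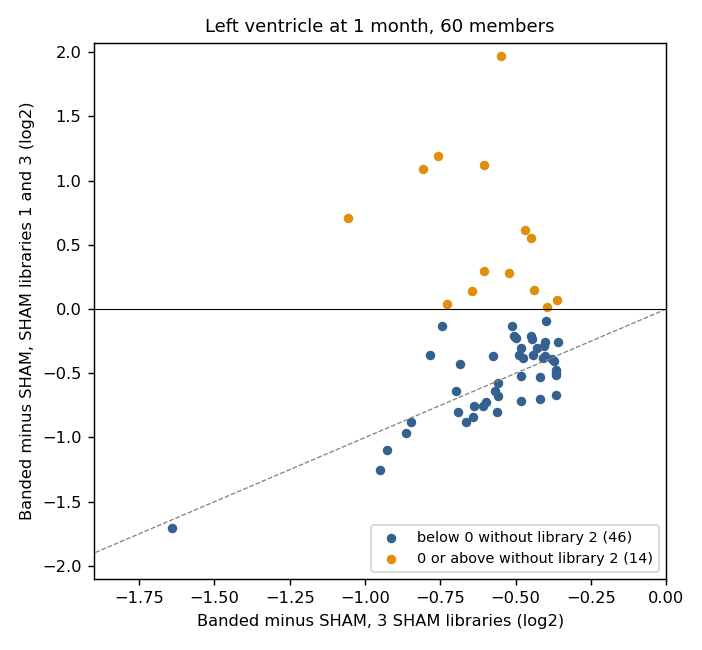
Banded minus SHAM difference at 1 month in the left ventricle with all 3 SHAM libraries (horizontal axis) and without SHAM library 2 (vertical axis), on the log2(mean CPM + 0.5) scale, for the 60 genes. Points above the horizontal line at 0 are the 14 genes that were no longer lower in Banded hearts, and the other 46 lie below it.

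The 60 genes covered a wide range of counts, with means of 11.5 to 33717 CPM in the left ventricle and a median of 50.1 CPM. Their mean was under 100 CPM in 41 genes, from 100 to 1000 CPM in 16 and above 1000 CPM in 3. CPM is not scaled by gene length, so these values are shares of the library and do not rank the genes by number of transcripts. The most counted, ENSFCAG00000009092, was also the most counted of all eligible genes.

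ENSFCAG00000009092 had 22831, 35941, 26222, 23882 and 25365 CPM in Banded hearts at 1 month, against 33455, 47691 and 28710 CPM in SHAM hearts. Its values at 4 months were 36102, 29648, 34182, 18104 and 32720 CPM in Banded hearts, against 42392, 45192, 39610, 49308 and 35544 CPM in SHAM hearts. At 4 months 1 Banded library passed the lowest SHAM library, and at 1 month the highest Banded library lay above 2 of the 3 SHAM libraries. Its difference was -0.49 at 4 months and -0.45 at 1 month, and -0.21 at 1 month without SHAM library 2.

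ENSFCAG00000002672 had 21799, 22890, 27018, 14575 and 17752 CPM in Banded hearts at 1 month, against 33149, 36652 and 31530 CPM in SHAM hearts, with no overlap. Later, at 4 months, it had 21144, 17433, 23341, 11044 and 15705 CPM in Banded hearts, against 33967, 28642, 18942, 31173 and 19627 CPM in SHAM hearts, and the 2 lower SHAM libraries fell within the Banded values. Its difference was -0.58 at 4 months and -0.70 at 1 month. ENSFCAG00000028178, next by counts, averaged 3381 ± 969 CPM in Banded hearts and 4629 ± 840 CPM in SHAM hearts at 4 months (SD, n = 5 each), and 3151 ± 704 CPM in Banded hearts and 4156 ± 1577 CPM in SHAM hearts at 1 month (SD, n = 5 and 3). Its groups overlapped at both times, and its difference at 1 month was -0.40, or -0.09 without SHAM library 2.

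Together the 60 genes took 5.51% ± 1.3 of the gene counts in Banded hearts and 7.89% ± 1.2 in SHAM hearts at 4 months (SD, n = 5 each), and 5.47% ± 0.93 in Banded hearts and 8.01% ± 1.5 in SHAM hearts at 1 month (SD, n = 5 and 3). Most of that was ENSFCAG00000009092 and ENSFCAG00000002672. The other 58 genes took 0.726% ± 0.151 in Banded hearts and 1.00% ± 0.119 in SHAM hearts at 4 months (SD, n = 5 each), and 0.703% ± 0.106 in Banded hearts and 0.973% ± 0.259 in SHAM hearts at 1 month (SD, n = 5 and 3). SHAM library 2 at 1 month held the largest share of its group, 9.68%.

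The 3 least counted genes were ENSFCAG00000014215, ENSFCAG00000010984 and ENSFCAG00000007809, described above. ENSFCAG00000014215 had 10.5, 3.78, 13.8, 3.63 and 6.55 CPM in Banded hearts at 1 month, against 5.07, 20.7 and 14.8 CPM in SHAM hearts. ENSFCAG00000010984 had 10.3, 12.7, 14.2, 9.13 and 11.8 CPM in Banded hearts at 1 month, against 15.6, 22.5 and 14.6 CPM in SHAM hearts, with no overlap, and 11.4, 6.80, 8.43, 5.17 and 8.71 CPM in Banded hearts at 4 months, against 12.8, 8.20, 7.74, 10.5 and 15.9 CPM in SHAM hearts, with overlap. The edge of the set was not a break in the data. The last gene inside, ENSFCAG00000041916, had differences of -0.39 at 4 months and -0.36 at 1 month, and the first outside, ENSFCAG00000026064, had -0.40 at 4 months and -0.36 at 1 month.

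The spread from library to library within groups is a description, since taking the largest differences of means favours genes with wide spread. The median coefficient of variation over the 60 was 22.5% in Banded hearts (14.6% for eligible genes) and 28.8% in SHAM hearts (21.9%) at 1 month. At 4 months it was 25.2% in Banded hearts (18.1%) and 21.1% in SHAM hearts (17.1%). Some libraries were low or high in many of the genes together. Banded library 4 at 4 months was the lowest of its group in 40 of the 60, against 27.4% of eligible genes, and Banded library 2 at 1 month was the highest of its group in 36 of the 60, against 36.8% of eligible genes. The median difference of the 60 at 4 months was -0.39 without that library 4, against -0.47 with it, and at 1 month -0.60 without that library 2, against -0.51 with it.

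**Figure D4:**
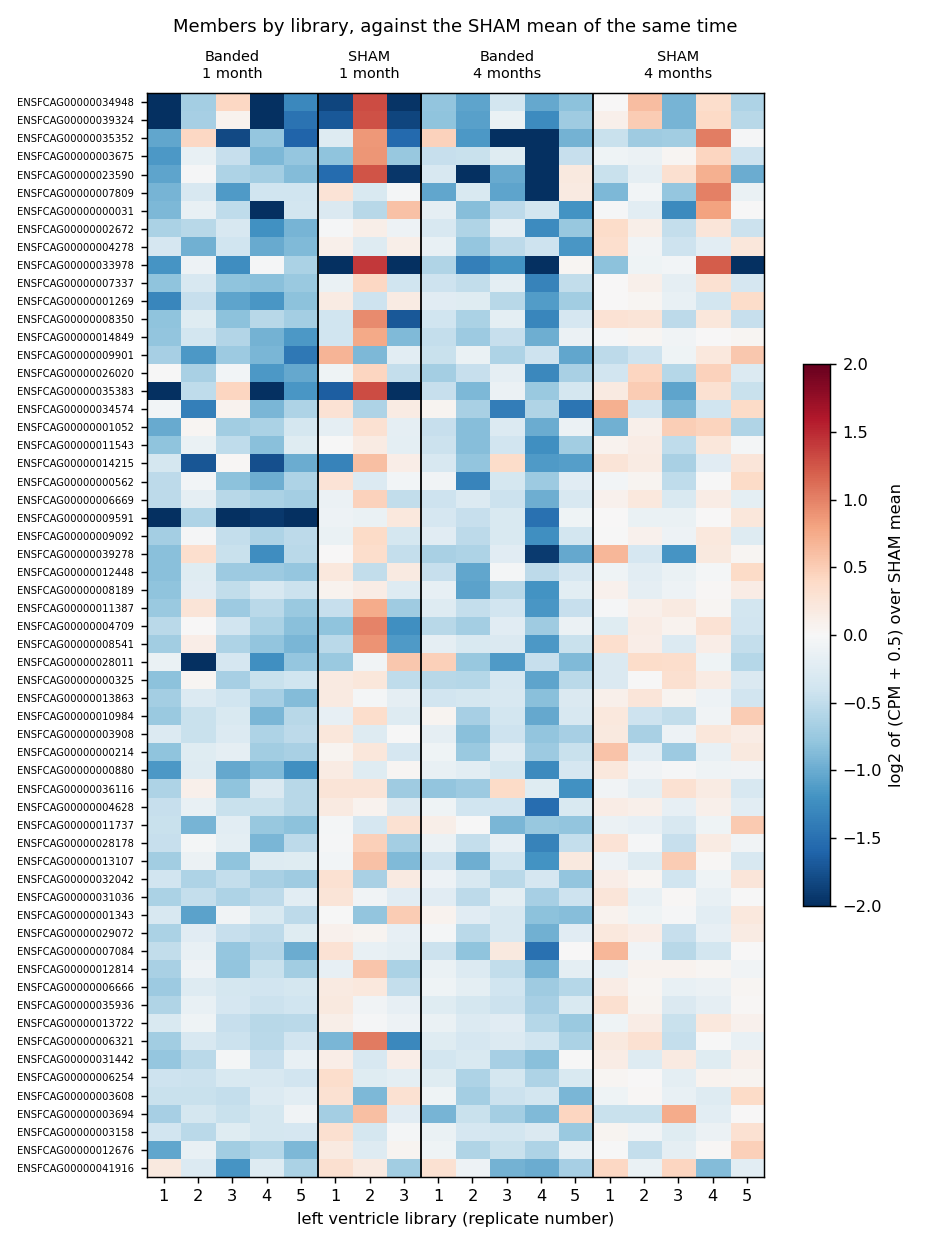
Log2 ratio of each left ventricle library's CPM to the mean of the SHAM libraries at the same time, for the 60 genes (rows, ordered by the rule) and 18 libraries (columns, Banded left of SHAM at each time); colours end at -2 and 2. Banded columns are mostly below 0, Banded library 4 at 4 months is the lowest of its group in 40 genes, and SHAM library 2 at 1 month stands high in part of the genes.

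The authors' deposited tables give their own values for the same left ventricular comparisons. For 1 month, the authors' deposited table called, at an adjusted p under 0.05, 77 of 11636 genes (0.662%), of which 5 were among the 60, all lower in Banded hearts. These were ENSFCAG00000000880, ENSFCAG00000001269, ENSFCAG00000009591, ENSFCAG00000013863 and ENSFCAG00000035936, and the authors' deposited table gave them log2 fold changes of -1.02, -1.11, -1.85, -0.69 and -0.50 in that order. At 4 months the authors' deposited table called 128 of 13766 genes (0.93%), of which ENSFCAG00000000325 was among the 60, at -0.71. Nothing is read from these shares, since the genes were chosen on the same contrasts. The mean normalized counts in the authors' deposited tables correspond to SHAM library 1 at 1 month entering with a weight of 2.01 and SHAM library 1 at 4 months with a weight of about 0, so that the tables and the counts need not rest on the same libraries.

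ENSFCAG00000009591 had the largest difference at 1 month, -1.64. It stood at 9.58, 26.5, 8.59, 10.3 and 8.71 CPM in Banded hearts, against 37.8, 37.2 and 47.3 CPM in SHAM hearts, so that the groups were well apart. Later, at 4 months, it stood at 16.1, 14.7, 16.5, 6.98 and 19.4 CPM in Banded hearts, against 20.5, 18.7, 18.6, 20.6 and 24.0 CPM in SHAM hearts, a difference of -0.46 with 1 Banded library above the lowest SHAM libraries. SHAM hearts had 20.5 ± 2.18 CPM at 4 months and 40.8 ± 5.69 CPM at 1 month (SD, n = 5 and 3).

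Skeletal muscle was not used to choose the genes and was tested. Of the 60, 58 passed the filter on low counts there, and the other two, ENSFCAG00000035352 and ENSFCAG00000023590, averaged 0.0239 and 0.0860 CPM in muscle. Their mean CPM was more than 10 times that of muscle in 12 of the 60 (20%), against 3.91% of eligible genes, and more than 2 times in 32 of the 60 (53.3%), against 36% of eligible genes. The widest ratio, 909 times, was that of ENSFCAG00000035352, followed by 154 times for ENSFCAG00000023590 and 112 times for ENSFCAG00000007084, named here for that ratio after its values were seen. Muscle exceeded the left ventricle by more than 2 times in ENSFCAG00000007809 (2.80 times) and ENSFCAG00000002672 (2.29 times). These shares are descriptions, since the floor of 10 CPM in the left ventricle bears on the ratio.

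For banding in muscle, edgeR called 0 of 13480 genes at an adjusted p under 0.05 at either time (0% called). The smallest adjusted p among the 58 was 0.365 at 4 months and 0.283 at 1 month. The left ventricle fit also called 0 of 13976 genes at either time, so these calls show no contrast between the tissues. At an unadjusted p under 0.05, 5 of the 58 passed at 4 months, 4 of them lower in Banded muscle, against 7.89% of all genes (1063), and 7 of the 58 passed at 1 month, against 14.1% of all genes (1898). At 4 months 34 of the 58 had a negative log2 fold change (58.6%, against 46.2% of all genes tested), with a median of -0.09 against 0.02. At 1 month 25 of the 58 were negative (43.1%, against 47.6%), with a median of 0.09 against 0.02. DESeq2 called 61 genes at 4 months (0.525%), 1 of them among the 58, and 29 genes at 1 month (0.216%), 0 of them among the 58. Leaving out 1 library gave 0 to 22 genes by edgeR at 4 months, with 22 without Banded library 1 and 6 without SHAM library 5, and 0 to 2 at 1 month, and none of these was among the 58. In muscle, the authors' deposited tables gave an adjusted p for 58 of the 60 at 4 months and for 38 at 1 month, and called 0 of these at 4 months (0.655% of genes called) and at 1 month (0.121%). Here too, their mean normalized counts correspond to SHAM library 1 at 1 month entering with a weight of 1.99. SHAM library 1 at 4 months has a weight of about 0.

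In muscle, every Banded library was below every SHAM library in 3 of the 60 genes at 4 months (0.558% of eligible genes) and in 0 of the 60 at 1 month (1.71%), and every Banded library was above every SHAM library in 0 of the 60 at 4 months (0.728%) and at 1 month (4.01%). The 3 genes, named after their values were seen apart from ENSFCAG00000028178, were ENSFCAG00000000031, ENSFCAG00000004278 and ENSFCAG00000028178. ENSFCAG00000000031 had 0.149, 0.201, 0.393, 0.485 and 0.506 CPM in Banded muscle at 4 months, against 2.67, 4.07, 0.893, 1.30 and 0.601 CPM in SHAM muscle. It was scarce in muscle, and the edgeR log2 fold change came to -2.41 (SE 0.70, adjusted p = 0.365), whereas DESeq2 gave an adjusted p of 0.0416.

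ENSFCAG00000004278 had 24.7, 18.5, 24.5, 23.9 and 16.6 CPM in Banded muscle at 4 months, against 49.6, 34.7, 33.9, 28.9 and 50.4 CPM in SHAM muscle. The edgeR log2 fold change was put at -0.85 (SE 0.25, adjusted p = 0.376). In the heart its difference was -0.57 at 4 months and -0.69 at 1 month. In muscle at 1 month, Banded libraries at 54.4, 35.5, 28.6, 30.5 and 15.2 CPM overlapped SHAM libraries at 41.0, 25.6 and 13.8 CPM, and edgeR put the log2 fold change at 0.19 (SE 0.29, adjusted p = 0.794).

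ENSFCAG00000028178 had 1630, 1564, 1172, 2191 and 1440 CPM in Banded muscle at 4 months, against 4938, 3430, 3000, 2348 and 2958 CPM in SHAM muscle, and the edgeR log2 fold change stood at -1.03 (SE 0.56, adjusted p = 0.688). ENSFCAG00000009092 had 4162, 1234, 1437, 7377 and 4780 CPM in Banded muscle at 4 months, against 16162, 16701, 9613, 6808 and 10818 CPM in SHAM muscle, and the edgeR log2 fold change stood at -1.60 (SE 0.91, adjusted p = 0.709). At 4 months 1 Banded library of ENSFCAG00000009092 passed the lowest SHAM library. Neither gene differed beyond the spread between libraries by this test, and that spread was wide at 1 month. ENSFCAG00000009092 ran from 79.2 to 16536 CPM in Banded muscle and from 203 to 20376 CPM in SHAM muscle at 1 month, and ENSFCAG00000028178 from 269.6 to 5051 CPM in Banded muscle and from 308.9 to 5445 CPM in SHAM muscle. The lowest values of both were in the same libraries, Banded library 5 and SHAM library 3. The adjusted p over the alternative fits ran from 0.0416 to 0.820 for ENSFCAG00000000031, from 0.10 to 0.765 for ENSFCAG00000004278 and from 0.326 to 0.973 for ENSFCAG00000028178.

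**Figure D5:**
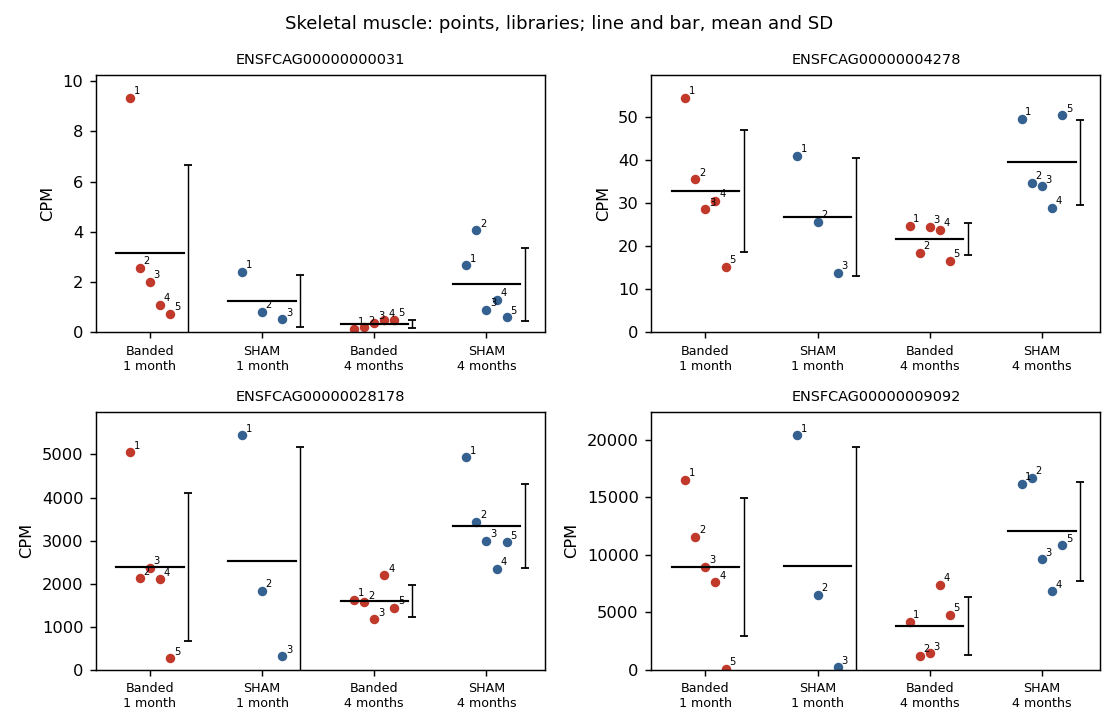
CPM in each skeletal muscle library (points) of ENSFCAG00000000031, ENSFCAG00000004278, ENSFCAG00000028178 and ENSFCAG00000009092 in Banded and SHAM cats at 1 and 4 months, with the group mean and SD (n = 5, and 3 for SHAM at 1 month); SD bars that would pass below 0 end at the axis. At 4 months all Banded points of the first 3 genes lie below all SHAM points, and at 1 month the groups overlap in all 4.

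The change of the banding effect in muscle, 4 months minus 1 month, was called by edgeR in 0 of 13480 genes at an adjusted p under 0.05 (0% called), with 1699 genes and 6 of the 58 at an unadjusted p under 0.05, and DESeq2 called 13 genes. The banding effects of the 58 genes at 4 months and at 1 month were therefore not shown to differ.

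With both directions counted together, the share of the genes called for time in muscle was no higher than that of all genes. By edgeR it was 17 of the 58 (29.3%) in Banded muscle, against 42.6% of all genes tested, and 13 of the 58 (22.4%) in SHAM muscle, against 25.3%. In Banded muscle, edgeR called 11 of the 58 higher (19.5% of all genes tested) and 6 lower (23.2%) at 4 months than at 1 month, at an adjusted p under 0.05. In SHAM muscle it called 11 of the 58 higher, a larger share than over all genes (11%), and 2 lower, a smaller share (14.2%). The same 8 genes were higher in both treatments and ENSFCAG00000000562, named after its values were seen, was lower in both, while 21 were called in either. The shares of all genes called in both or in either were not computed, so nothing is read from these counts. In SHAM muscle 8 of the 58 were called without SHAM library 2 at 1 month and 5 without SHAM library 3 at 1 month. Calls over all genes fell as well, from 3404 to 2182 and 1998 in that order. Whether the fall was larger among the 58 than over all genes was not tested.

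The largest rises with time in muscle, named after their values were seen, were in genes with far higher CPM in the heart or with wide spread. ENSFCAG00000006321 had 0.821, 3.02, 1.68, 1.34 and 1.62 CPM at 4 months, against 0.359, 0.268, 0.209, 0.0727 and 0.0351 CPM at 1 month in Banded muscle, with no overlap. The edgeR log2 fold change came to 3.37 (SE 0.54, adjusted p = 0.000183) in Banded muscle and 2.94 (SE 0.67, adjusted p = 0.00509) in SHAM muscle. SHAM muscle at 1 month had 0.464, 0.0751 and 0.0367 CPM, so in both treatments the values at 1 month rest on few reads. ENSFCAG00000039278 had 10.9, 3.25, 6.44, 4.92 and 7.55 CPM at 4 months, against 2.15, 2.91, 2.95, 3.27 and 2.14 CPM at 1 month in Banded muscle, where edgeR put the log2 fold change at 1.45 (SE 0.30, adjusted p = 0.00126).

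ENSFCAG00000003694 had 490.8, 103.7, 165.1, 525.5 and 476.4 CPM at 4 months, against 42.4, 72.7, 143.2, 91.1 and 27.6 CPM at 1 month in Banded muscle, and the groups overlapped. The edgeR log2 fold change stood at 2.43 (SE 0.58, adjusted p = 0.00307) in Banded muscle and 2.09 (SE 0.70, adjusted p = 0.0359) in SHAM muscle. The genes that fell most in Banded muscle, also named after their values were seen, were ENSFCAG00000000031, at a log2 fold change of -2.91 (SE 0.70, edgeR adjusted p = 0.00332), and ENSFCAG00000034574, at -2.51 (SE 0.56, edgeR adjusted p = 0.00191). In SHAM muscle their log2 fold changes were 0.72 (SE 0.75, edgeR adjusted p = 0.50) and -0.91 (SE 0.59, edgeR adjusted p = 0.264) in that order. ENSFCAG00000000562 was lower at 4 months in both, with log2 fold changes of -1.44 (SE 0.30, edgeR adjusted p = 0.00123) in Banded muscle and -1.0 (SE 0.33, edgeR adjusted p = 0.0331) in SHAM muscle.

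A trio of genes, chosen after their values were seen, moved together across libraries. ENSFCAG00000034948, ENSFCAG00000039324 and ENSFCAG00000035383 had their highest value in the same library in all 8 groups of both tissues. In the left ventricle this was library 3 of the Banded group at both times and library 2 of the SHAM group at both times. In muscle it was library 4 of the Banded group at both times and library 2 of the SHAM group at both times. Of 1770 pairs among the 60 genes, 3 shared their highest library in all 8 groups (0.169%), against 0.026% of pairs of eligible genes. The left ventricular part of this pattern entered the choice of the 60, and the trio was picked for it, so it carries no test. ENSFCAG00000035383 had 7.01, 21.6, 41.8, 6.83 and 13.6 CPM in Banded hearts at 1 month, against 9.56, 77.8 and 5.81 CPM in SHAM hearts, the same pattern of 1 high library in each group as in the other two. Whether these identifiers stand for near-identical copies that share reads was not tested.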

How the data were processed

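Messenger RNA of cat left ventricle and skeletal muscle was sequenced from libraries made with a stranded kit, per the labels. The authors deposited raw counts of 26681 genes in a file for each library, which ends with 5 summary lines on unassigned reads. The submitters' processing notes name HISAT2 2.1.0, HTSeq 0.11.2 and DESeq2 1.22.2, and the genome build and annotation are not given in the sources used here. Summary lines were left out, which left 46.1% to 63.8% of the counted reads in the left ventricle and 56.3% to 76.3% in muscle. The authors' deposited comparison tables give a mean normalized count (a signal), a log2 fold change and an adjusted p-value per gene, and were used only where named.

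CPM values, group means and the rule were computed from the deposited counts. Per tissue, edgeR 4.0.16 (R 4.3.3) was fitted to all 18 libraries with filterByExpr, TMM scaling and the quasi-likelihood test. Tests were two-sided, with Benjamini-Hochberg adjustment over all genes tested, and the threshold was an adjusted p of 0.05. Simulated data were used only for the edgeR fit of banding in muscle at 4 months, and no result of that trial is given here. Alternatives were DESeq2 1.42.0, limma 3.58.1 voom, RLE scaling, no filter, fewer groups, a replicate block, and leaving libraries out in turn. Members and lists were chosen with earlier results of these data known. Genes named were the 6 lowest by the rule, the 4 with the widest gap between groups (the smaller gap of both times), the 3 most and 3 least counted, members called in muscle banding (0), and those at the edge. Others named are said to have been chosen after their values were seen, or were called in the authors' tables. Marker and pathway lists could not be used, as 0 identifiers matched a symbol. Chi-square per degree of freedom was 36.3 or more in all 66 pairs of libraries within groups, so none was counted as a repeat.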

Additional observations from a re-analysis of the deposited data

Results flagged for a closer look

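Among 89 groups of 5 libraries of 16 named genes, 12 had 1 library far from the others of its group, by a limit that chance alone passes in about 1 in 20 groups. The genes were chosen on left ventricle values, a choice that favours wide spread, and no rate over eligible genes is given. The 12 are therefore a description and are not read against that rate. ENSFCAG00000000880 gave 4 of them. It reached 215.9 CPM in Banded left ventricle library 2 at 1 month (nearest other library 139.8 CPM), 92.4 CPM in Banded left ventricle library 4 at 4 months (176.7 CPM), 261.7 CPM in SHAM left ventricle library 1 at 4 months (221.6 CPM) and 225.8 CPM in SHAM skeletal muscle library 1 at 4 months (196.6 CPM). ENSFCAG00000035352 gave 3, with 30.3 CPM in Banded left ventricle library 2 at 1 month (13.0 CPM), 45.7 CPM in Banded left ventricle library 1 at 4 months (16.8 CPM) and 68.0 CPM in SHAM left ventricle library 4 at 4 months (32.6 CPM).

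ENSFCAG00000003675 fell to 4.48 CPM in Banded left ventricle library 4 at 4 months, where the nearest other library had 17.0 CPM. ENSFCAG00000009092 had 35941 CPM in Banded left ventricle library 2 at 1 month, against 26222 CPM in the nearest other library. In SHAM left ventricle at 4 months, ENSFCAG00000007809 had 30.1 CPM in library 4 (nearest 14.2 CPM) and ENSFCAG00000006254 had 24.9 CPM in library 3 (nearest 28.7 CPM). ENSFCAG00000031036 had 10.9 CPM in SHAM skeletal muscle library 5 at 4 months, where the nearest other library had 7.32 CPM. Banded left ventricle library 2 at 1 month and library 4 at 4 months account for 5 of the 12. The SHAM groups at 1 month have 3 libraries each and were not examined in this way.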

How the results depend on the processing

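Choosing the genes again shared 38 of the 60 with TMM-scaled CPM and 27 with group medians, and 34 to 54 when each left ventricle library was left out (34, 37 and 39 in the absence of SHAM 1-month library 2, SHAM 1-month library 3 and Banded 4-month library 4). Of the 60, 21 had all Banded below all SHAM libraries at 1 month with TMM, where the share of eligible genes was not computed. Leaving out 1 library gave up to 26 at 1 month and up to 16 at 4 months. At 1 month it was 24 without Banded library 2 (5.19% of eligible genes), 21 without SHAM library 2 (9.54%) and 26 without SHAM library 3 (5.14%). At 4 months it was 16 without Banded library 1 (2.17%) and 10 without Banded library 5 (1.15%). It was 15 at 4 months without SHAM library 3 (1.73%) and 11 without SHAM library 5 (1.88%). Without SHAM 1-month library 2, the left ventricular difference at 1 month reversed in ENSFCAG00000034948 (1.09, from -1.39 over the libraries left out), ENSFCAG00000039324 (0.71, from -1.56), ENSFCAG00000035352 (0.043, from -1.25), ENSFCAG00000003675 (0.14, from -0.92) and ENSFCAG00000023590 (1.12, from -1.06), an alternative added after seeing the data.

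In muscle, calls for banding at 1 month were 29 with DESeq2, 1 without the filter and 0 to 2 when a library was left out. At 4 months they were 61 with DESeq2 (1 of the 58), 1 with the replicate block, and 0 to 22 when a library was left out (22 without Banded 4-month library 1, 6 without SHAM 4-month library 5). The difference of both effects had 13 calls with DESeq2 and 0 to 1 when a library was left out. Calls for time in SHAM muscle fell to 2182 without SHAM 1-month library 2 and 1998 without library 3, from 3404, and those among the 58 to 8 and 5, from 13; leaving out other libraries gave up to 3715 and 16. The cause was not tested. The replicate block gave 20 calls among the 58 for time in Banded muscle and 14 in SHAM muscle. Calls over all genes with that block are not given here, so nothing is read from these counts. Residuals of 24 same-numbered pairs of muscle libraries across groups correlated by -0.13 to 0.32 (median 0.02), with 8 over 0.1. Of 96 other pairs, 22 were over 0.1 (median -0.02). With so few libraries in a group, these values do not decide whether replicate numbers pair muscle libraries. Pairs across tissues were not tested.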

Other observations

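ENSFCAG00000028011, one of the 60, was chosen here after its values were seen. It had 0.532 CPM in Banded left ventricle library 2 at 1 month, whereas the other 17 left ventricle libraries ran from 6.06 to 24.3 CPM. In skeletal muscle it had 0.805 CPM in Banded library 2 at 1 month, whereas the other 17 libraries ran from 5.58 to 18 CPM. The library with this low value carried the same group and number in both tissues. Across the 60 genes, the highest library of a group carried the same number in both tissues in 14 genes for Banded at 4 months (22.4% of eligible genes), 17 for SHAM at 4 months (27.3%), 16 for Banded at 1 month (24.7%) and 25 for SHAM at 1 month (32.5%). The labels do not say whether libraries with the same number came from the same cat.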
